A study of Mus musculus with 9 samples.

Results

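A set of 51 genes of the cell division cycle and of DNA replication was followed in mouse bone marrow-derived macrophages measured on 9 arrays. The members were taken by gene symbol, and where several probe sets named a gene the one with the highest mean was to be used. Of the 51 listed genes, 48 had a named probe set among the 19505 genes measured, and none of the 48 had more than 1. Ccnb1, Mcm7 and Foxm1 had no named probe set and are not analysed here. The 48 genes comprised 18 S-phase genes, 28 mitotic genes and the transcription factors E2f1 and Mybl2. All 48 lay above the level of 5.66 (log2) below which a gene was left out as dim, so all were among the 10042 genes tested. Their mean levels over the 9 arrays ran from 6.41 (Cenpf) to 12.32 (Pcna). Values are log2 hybridisation levels from different probe sets, so they are compared between arrays for 1 gene and not between genes.

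The marrow came from wild-type C57BL/6 mice, and macrophages were grown from it over 7 days. The medium held 10% serum and M-CSF, the macrophage colony-stimulating factor, given as 10 ng/ml in the sample protocol and as 20 ng/ml in the series text. All 3 groups then received 20 ng/ml of interleukin-4 (IL-4) for 24 hours, so every array is from IL-4-treated cells and none is from unstimulated cells. The groups, of 3 arrays each, differed in lipocalin-2 (LCN2), a secreted protein that binds iron-carrying siderophores: vehicle, LCN2 added on day 7 together with IL-4 at a dose not stated in the labels, or LCN2 (recombinant mouse protein, 150 ng/ml) throughout culture, from day 0. The titles number the arrays 1, 2 and 3 within each group, and the labels do not say whether a number stands for a mouse, a culture or a processing day. Separate animals or cultures behind the 3 arrays of a group are not stated either, so a p-value here measures the spread between samples that may be technical repeats.

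As background, a cell that commits to division first raises the genes that build and license replication origins, make deoxynucleotides and copy DNA. Many of them are targets of the E2F factors, which the retinoblastoma protein holds inactive until cyclin-dependent kinases (CDKs) phosphorylate it. Genes for chromosome condensation, the spindle and cell separation peak later, in G2 and mitosis, under the MuvB complex joined first by B-MYB (the product of Mybl2) and then by FOXM1, and NF-Y bound at CCAAT boxes contributes to their promoters. In resting cells the same MuvB core, in the DREAM complex, represses many of these genes through the element called CHR. M-CSF is the growth factor that drives the division of macrophages and their precursors in marrow culture, and mature macrophages leave the cycle.

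The arrays numbered 1 separated from the other arrays. The first principal component of the genes tested held 62.5% of the variance and set the 3 arrays numbered 1, 1 of each group, apart from the other 6. Of 11 measured macrophage markers, 10 passed the dim filter and 1 (Cd163) did not, and 1 to 2 of the 11 were below the dim level on each array. Among them, Adgre1, the surface antigen F4/80, read 11.62 to 11.97, Csf1r, the M-CSF receptor, 11.97 to 12.16 and Mrc1, the mannose receptor, 11.55 to 12.09. None of the measured markers of B, NK or erythroid cells (4, 5 and 3) passed the dim filter. Other lists had genes that passed: megakaryocyte 3 of 4, mast cell and basophil 2 of 6 and eosinophil 2 of 5. So did fibroblast and stroma (2 of 8), T cell (1 of 5) and endothelial markers (1 of 5). Markers of other marrow cells did move with the number, and those values stand beside the cell cycle results further on.

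The promoters of 8 members are shown because they hold the sequence elements named above, or lack them, in genes whose levels the results turn on. Each is the 250 bases before the transcription start in the RefSeq promoter table of GRCm38.p6, written 5′ to 3′ on the gene's strand. Capitals mark matches, on either strand, to the CCAAT box (CCAAT), the CHR (TTTGAA) and the E2F site (TTTCCCGC, TTTGGCGC or TTTCGCGC). Mki67 (chr7:135716380-135716629, minus strand), Cdk1 (chr10:69352913-69353162, minus strand), Kif11 (chr19:37376132-37376381, plus strand) and Cdc20 (chr4:118437344-118437593, minus strand) are mitotic genes, and Mcm5 (chr8:75109259-75109508, plus strand), Mcm6 (chr1:128359706-128359955, minus strand), Chek1 (chr9:36726659-36726908, minus strand) and Pcna (chr2:132253181-132253430, minus strand) are S-phase genes.
Mki67: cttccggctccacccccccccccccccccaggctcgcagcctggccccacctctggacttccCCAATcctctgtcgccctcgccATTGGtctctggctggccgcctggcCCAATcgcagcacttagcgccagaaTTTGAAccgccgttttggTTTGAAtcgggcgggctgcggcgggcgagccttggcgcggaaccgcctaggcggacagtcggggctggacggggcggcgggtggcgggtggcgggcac
Cdk1: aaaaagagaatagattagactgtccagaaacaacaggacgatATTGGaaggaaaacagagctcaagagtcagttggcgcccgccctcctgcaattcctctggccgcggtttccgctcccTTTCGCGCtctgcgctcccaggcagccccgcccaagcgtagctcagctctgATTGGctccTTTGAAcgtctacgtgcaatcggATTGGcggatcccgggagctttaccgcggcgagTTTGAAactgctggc
Kif11: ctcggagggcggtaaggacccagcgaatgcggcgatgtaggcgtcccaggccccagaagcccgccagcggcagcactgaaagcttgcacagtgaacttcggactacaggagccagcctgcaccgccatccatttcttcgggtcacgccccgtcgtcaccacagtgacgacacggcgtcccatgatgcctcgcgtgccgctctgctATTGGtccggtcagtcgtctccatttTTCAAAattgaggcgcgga
Cdc20: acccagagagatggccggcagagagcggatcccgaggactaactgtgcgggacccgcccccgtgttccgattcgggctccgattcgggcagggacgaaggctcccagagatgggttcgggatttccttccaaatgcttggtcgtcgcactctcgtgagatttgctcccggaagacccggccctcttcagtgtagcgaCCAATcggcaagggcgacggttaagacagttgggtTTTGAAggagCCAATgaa
Mcm5: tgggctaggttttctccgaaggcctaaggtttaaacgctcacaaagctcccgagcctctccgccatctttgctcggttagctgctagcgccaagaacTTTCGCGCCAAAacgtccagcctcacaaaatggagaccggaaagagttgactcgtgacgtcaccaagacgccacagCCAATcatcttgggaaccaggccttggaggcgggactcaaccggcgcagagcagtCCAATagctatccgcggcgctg
Mcm6: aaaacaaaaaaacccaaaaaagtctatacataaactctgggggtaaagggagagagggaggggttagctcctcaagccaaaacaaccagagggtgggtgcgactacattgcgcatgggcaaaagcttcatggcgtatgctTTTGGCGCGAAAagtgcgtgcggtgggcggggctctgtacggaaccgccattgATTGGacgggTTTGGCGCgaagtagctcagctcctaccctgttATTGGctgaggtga
Chek1: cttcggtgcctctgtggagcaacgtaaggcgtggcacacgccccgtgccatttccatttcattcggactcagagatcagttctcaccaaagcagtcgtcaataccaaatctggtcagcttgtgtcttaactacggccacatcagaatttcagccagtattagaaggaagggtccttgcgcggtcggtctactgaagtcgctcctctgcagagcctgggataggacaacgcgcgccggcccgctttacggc
Pcna: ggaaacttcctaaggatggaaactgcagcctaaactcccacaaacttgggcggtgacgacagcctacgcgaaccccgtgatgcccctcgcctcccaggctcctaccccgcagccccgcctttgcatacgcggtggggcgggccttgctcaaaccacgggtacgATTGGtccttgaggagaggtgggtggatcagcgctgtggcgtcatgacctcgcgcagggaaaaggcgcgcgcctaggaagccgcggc

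Mki67 held 3 CCAAT boxes and 2 CHR matches, Cdk1 3 and 2, Kif11 1 and 1, and Cdc20 2 and 1. Cdk1 was the only mitotic member with an E2F match. Mcm5 held 2 E2F matches and Mcm6 3, and since these letters read partly alike on both strands, some of the matches overlap and count the same bases again. Pcna held 1 CCAAT box only, and no match to any of the letters searched was found in the window of Chek1. RefSeq promoters were matched for 41 of the 48 measured members (15 S-phase, 24 mitotic and both transcription factors), and 3 of these genes had 2 starts. A CCAAT box lay within the 250 bases of 21 of the 24 mitotic genes (87.5%) and of 9 of the 15 S-phase genes (60%), against 40.4% of the 8236 tested genes with a promoter. The CHR letters were in 9 mitotic promoters (37.5%) and 2 S-phase promoters (13.3%), against 13.2% of tested genes. E2F letters were in 4 S-phase promoters (26.7%) and 1 mitotic promoter (4.17%), against 3.63%. Among all 27025 genes with a promoter in the table the shares were 37.5%, 18.3% and 1.78%. The windows used for E2f1 and Mybl2 held no match to these motifs. For E2f1 the start used lies inside the gene's annotated span, so its window does not stand for the region before the whole gene. CCAAT matches in mitotic promoters had their first base at a median position of -78 relative to the start (55 matches, from -228 to -7), and those in S-phase promoters at -64.5 (16 matches). The 13 CHR matches of mitotic genes had a median position of -71. Each start was counted separately, and the 2 windows of Ect2 overlap, as do the 2 of Prc1, so some of their sites are counted again. A match describes the letters in the window and does not show that a factor binds there, and the shares were not tested.

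**Figure D1:**
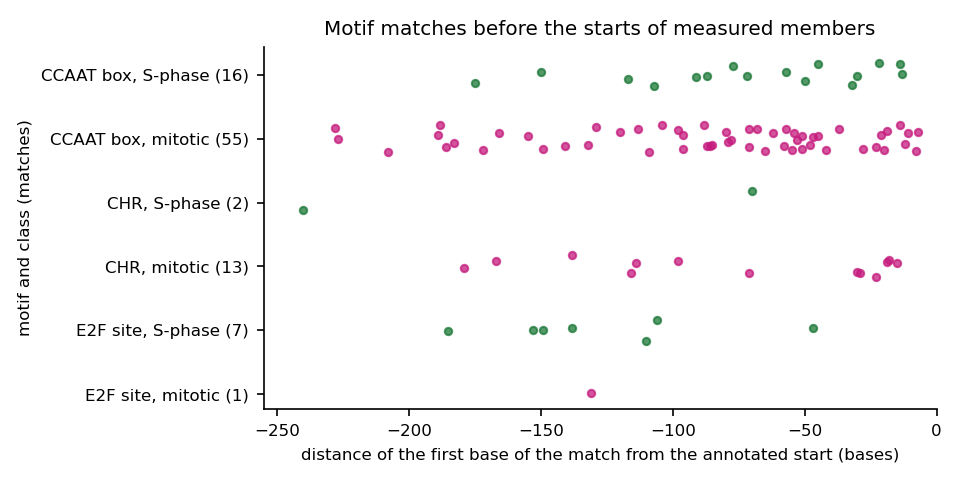
Positions of the motif matches in the promoters of the members, by class. The horizontal axis is the distance in bases of a match's first base from the transcription start. Each point is 1 match on either strand, counted for each start of a gene. Of the 55 CCAAT matches of mitotic genes and the 16 of S-phase genes most lie within the last 150 bases before the start.

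Nearly all members were lower on the arrays numbered 1. With group in the model (limma), 43 of the 48 were called lower in number 1 than in number 2 at adjusted p under 0.05. The median difference over the members was -0.93 on the log2 scale, beside -0.058 over all genes tested. Against number 3, 45 of 48 were called lower, with a median of -1.06 beside -0.074. Further on, counts of genes that fell or rose in number 1, or were lower or higher there, are of genes called at this threshold. Over all 10042 genes tested, 15.4% were called lower and 7.64% higher against number 2, and 19.5% and 9.08% against number 3, and no member was called higher in either. Both comparisons use the same 3 arrays numbered 1, so they are not independent. The 3 arrays of a number, 1 per group, may share a mouse, a culture or a processing day. A p-value between numbers measures the spread left within a number after group, not how far such units vary. Between numbers 2 and 3, 0 members and 0% of genes were called lower and 0% higher at adjusted p under 0.05 in limma (1 member, Chek1, and 310 genes at an unadjusted p under 0.05), and the members' median difference was -0.14, with 45 of 48 below 0 against 55.7% of all genes. With 1 array left out that median ran from -0.27 without the day 0 array numbered 2 to -0.038 without the day 7 array numbered 2. The F test over the 3 numbers called 45 members, against 23% of all genes, and for 44 members every array numbered 1 lay below each of the other 6, against 23.6% of all genes. Of the squared loadings on the first principal component, the 48 members held 3.12%, while they are 0.478% of the genes tested. In RNA from a bulk culture, fewer dividing cells and less of these RNAs per cell cannot be told apart. Some of these counts moved by more than 1.5 times when a single array was left out. Without the vehicle array numbered 1, 27 members were called against number 2 and 24 by the F test, and without the day 0 array numbered 1 the F test called 27. Of all genes, 2311 were called between numbers 1 and 2, 2868 between 1 and 3 and 2307 by the F test. Those counts were 1104, 1482 and 785 without the vehicle array numbered 1, and 1281, 1599 and 963 without the day 0 array numbered 1. Without the vehicle array numbered 2, the count against number 2 was 1076 and that of the F test 1495. Without the vehicle array numbered 3, the count against number 3 was 1263 and that of the F test 1427, and without the day 0 array numbered 2 the count against number 2 was 1322.

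**Figure D2:**
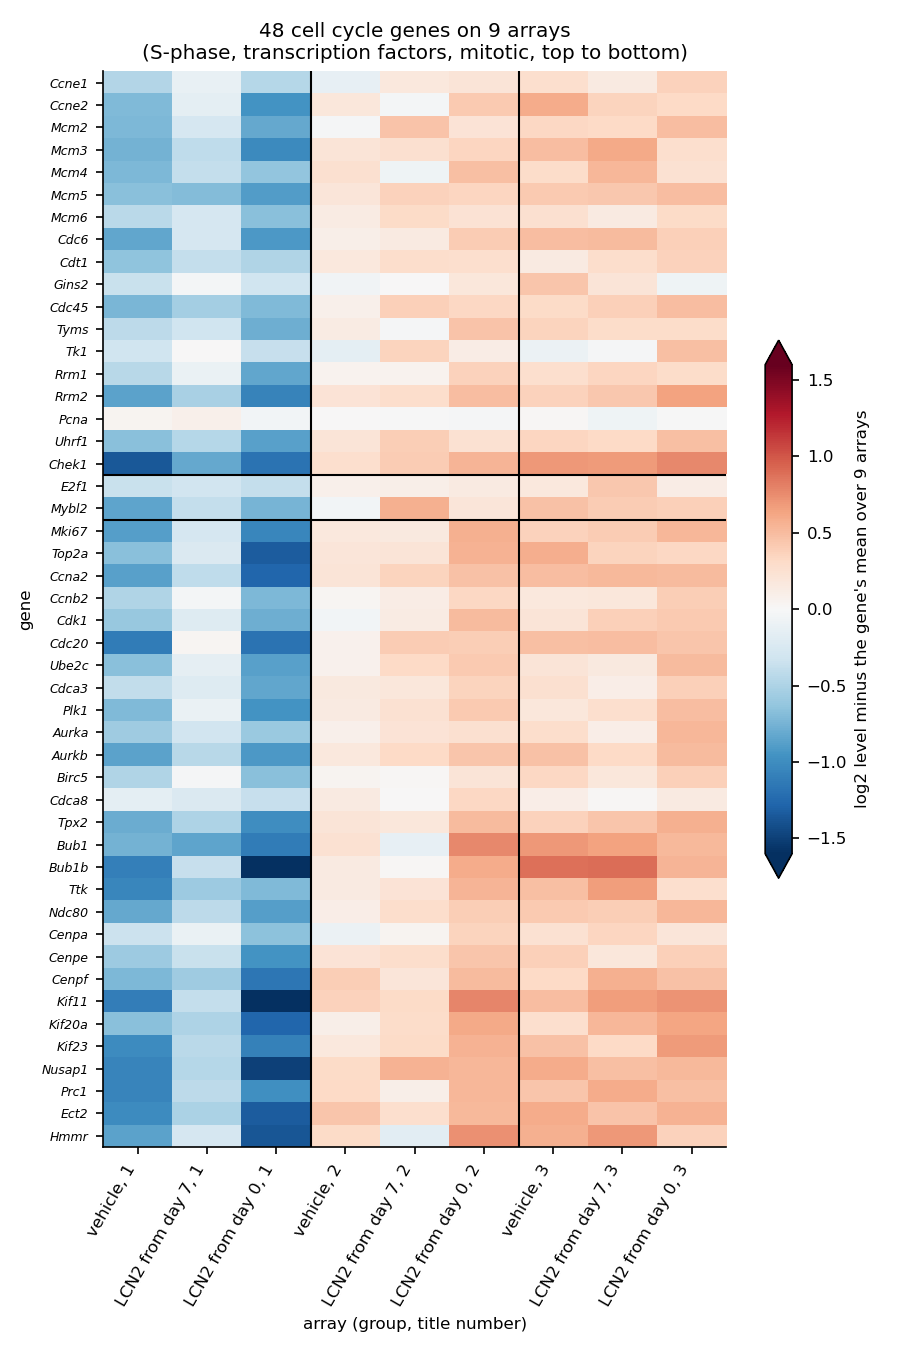
Level of each measured member on each array as the log2 difference from that gene's mean over the 9 arrays; rows are the 48 genes grouped by class, columns are the arrays ordered by number and then group, and blue is below and red above the gene's mean. The columns numbered 1 lie below the gene means for nearly every row, the least with LCN2 from day 7, and Pcna is even across the arrays.

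In the S-phase class, 15 of 18 genes were called lower in number 1 against either number, all but Pcna, Tk1 and Gins2. Tk1 and Gins2 had lower means in number 1 as well but did not pass the threshold. The G1/S cyclins act first. In each series of 3 values here and further on, the arrays are in the order of their numbers 1, 2 and 3. Ccne1, which encodes cyclin E1, an activator of CDK2, read 8.02, 8.36 and 8.75 with vehicle, 8.36, 8.66 and 8.63 with LCN2 from day 7 and 8.03, 8.69 and 8.86 with LCN2 from day 0. Its arrays numbered 1 were the lowest of each group, but the day 7 array numbered 1 reached the vehicle array numbered 2, so the numbers touched. The difference was -0.43 ± 0.13 (SE, n = 3 arrays per number, adjusted p = 0.0416) against number 2 and -0.61 ± 0.13 against number 3. The call against number 2 was lost without the dim filter (adjusted p = 0.0859) and without any 1 of the 3 vehicle arrays, the day 7 array numbered 2 or the day 0 arrays numbered 1 or 2, with adjusted p from 0.0574 to 0.168. Ccne2, the second cyclin E gene, read 6.76, 7.64 and 8.06 with vehicle, 7.31, 7.43 and 7.82 with LCN2 from day 7 and 6.51, 7.88 and 7.78 with LCN2 from day 0. All 3 arrays numbered 1 were below the other 6, and the differences were -0.79 ± 0.21 and -1.03 ± 0.21.

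The MCM proteins form the helicase that unwinds DNA at replication forks. All 5 measured MCM genes fell in number 1, with a median of -0.81 against number 2 and -0.98 against number 3. Mcm2 read 8.28, 8.96 and 9.32 with vehicle, 8.72, 9.44 and 9.30 with LCN2 from day 7 and 8.17, 9.20 and 9.48 with LCN2 from day 0. Mcm5, whose promoter above carries the E2F letters, read 8.29, 9.15 and 9.37 with vehicle, 8.26, 9.33 and 9.39 with LCN2 from day 7 and 8.06, 9.31 and 9.45 with LCN2 from day 0. For both genes the arrays numbered 1 were the lowest 3 of the 9, and the difference from number 2 was -0.81 ± 0.14 for Mcm2 (adjusted p = 0.00596) and -1.06 ± 0.10 for Mcm5 (adjusted p = 0.000629). Mcm3, Mcm4 and Mcm6 differed from number 2 by -0.997, -0.80 and -0.68.

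Cdc6 and Cdt1 load the MCM helicase at origins, and Cdc45 and Gins2 belong to the complex that turns it on. Cdt1 read 8.25, 9.07 and 9.04 with vehicle, 8.52, 9.18 and 9.18 with LCN2 from day 7 and 8.42, 9.17 and 9.27 with LCN2 from day 0. Its number 1 arrays were lowest in all 3 groups, with differences of -0.74 ± 0.088 from number 2 and -0.77 ± 0.088 from number 3. Cdc6 fell by 0.88 and 1.13 and Cdc45 by 0.93 and 1.05 on the log2 scale. Gins2 read 7.47, 7.78 and 8.27 with vehicle, 7.80, 7.84 and 8.04 with LCN2 from day 7 and 7.51, 8.01 and 7.76 with LCN2 from day 0. It was lowest on the number 1 array of each group, yet its differences, -0.28 ± 0.15 (adjusted p = 0.208) and -0.43 ± 0.15 (adjusted p = 0.0646), did not pass the threshold. The second passed without the day 0 array numbered 2 (adjusted p = 0.0427) or 3 (adjusted p = 0.0299), and with a stricter dim filter, robust variances, array weights or no group term (adjusted p from 0.00747 to 0.0495).

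Enzymes of deoxynucleotide supply did not all move by the same amount. Rrm1 and Rrm2 encode the large and the small subunit of ribonucleotide reductase, which makes deoxynucleotides from ribonucleotides. Rrm1 read 8.97, 9.47 and 9.69 with vehicle, 9.31, 9.48 and 9.77 with LCN2 from day 7 and 8.59, 9.78 and 9.71 with LCN2 from day 0. Rrm2 read 8.88, 9.95 and 10.11 with vehicle, 9.22, 10.02 and 10.17 with LCN2 from day 7 and 8.66, 10.23 and 10.38 with LCN2 from day 0. Both were lowest on the arrays numbered 1, and the difference from number 2 was -0.62 ± 0.17 for Rrm1 and -1.15 ± 0.15 for Rrm2. Tyms, thymidylate synthase, read 8.17, 8.72 and 8.95 with vehicle, 8.27, 8.57 and 8.89 with LCN2 from day 7 and 7.81, 9.05 and 8.89 with LCN2 from day 0. It differed by -0.70 ± 0.16 (adjusted p = 0.0175) and again put the 3 arrays numbered 1 below the rest. Tk1, the cytosolic thymidine kinase of the salvage route, read 6.55, 6.71 and 6.77 with vehicle, 6.89, 7.24 and 6.85 with LCN2 from day 7 and 6.50, 6.99 and 7.35 with LCN2 from day 0. Here the numbers overlapped, since the day 7 array numbered 1 exceeded all vehicle arrays, and neither -0.34 ± 0.16 (adjusted p = 0.172) nor -0.35 ± 0.16 (adjusted p = 0.143) passed, although the second did without the day 7 array numbered 3 (adjusted p = 0.0455).

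Pcna, the sliding clamp of the replicative polymerases, gave nearly the same signal on all arrays. Its mean of 12.32 lay at percentile 99.6 of the genes measured, and whether its probe set still responds to changes at that level was not tested. It read 12.35, 12.32 and 12.34 with vehicle, 12.39, 12.31 and 12.24 with LCN2 from day 7 and 12.28, 12.30 and 12.31 with LCN2 from day 0. The 9 values spanned 0.15, numbers 1, 2 and 3 overlapped, and the differences were 0.032 ± 0.086 (95% interval -0.17 to 0.23) and 0.045 ± 0.086 (95% interval -0.15 to 0.24). Chek1, the kinase that halts the cycle when replication stalls, was at the other end of the S-phase class. It read 6.68, 8.30 and 8.72 with vehicle, 7.21, 8.44 and 8.71 with LCN2 from day 7 and 6.84, 8.57 and 8.80 with LCN2 from day 0. Every array numbered 1 was below the other 6, with differences of -1.53 ± 0.12 (adjusted p = 0.000286) and -1.83 ± 0.12 (adjusted p = 0.00013). Uhrf1, which guides maintenance of DNA methylation behind the fork, fell by 0.94 and 1.04.

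The transcription factors moved in the same direction. E2f1, an activating E2F, read 7.32, 7.77 and 7.85 with vehicle, 7.38, 7.78 and 8.12 with LCN2 from day 7 and 7.30, 7.82 and 7.80 with LCN2 from day 0, with differences of -0.45 ± 0.10 (adjusted p = 0.0136) and -0.59 ± 0.10 (adjusted p = 0.00414). Mybl2, the MYB partner of MuvB, read 6.21, 7.01 and 7.52 with vehicle, 6.67, 7.62 and 7.46 with LCN2 from day 7 and 6.31, 7.24 and 7.43 with LCN2 from day 0, with -0.89 ± 0.13 (adjusted p = 0.00275) and -1.07 ± 0.13. In both genes the 3 arrays numbered 1 were below the other 6.

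Of the 28 mitotic genes, 26 were called lower against number 2 and 28 against number 3. Mki67 encodes Ki-67, the common marker of cycling cells that coats mitotic chromosomes, and it read 9.65, 10.69 and 10.90 with vehicle, 10.26, 10.68 and 10.94 with LCN2 from day 7 and 9.48, 11.09 and 11.06 with LCN2 from day 0. Top2a, the topoisomerase that untangles chromosomes, read 7.73, 8.60 and 8.99 with vehicle, 8.17, 8.61 and 8.75 with LCN2 from day 7 and 7.07, 8.96 and 8.74 with LCN2 from day 0. Both had their 3 lowest values on the arrays numbered 1, and the day 7 array numbered 1 was the highest of those 3. The differences from numbers 2 and 3 were -1.02 ± 0.20 and -1.17 ± 0.20 for Mki67 (adjusted p = 0.00862 and 0.00415) and -1.07 ± 0.24 and -1.17 ± 0.24 for Top2a.

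Cdk1, the kinase that drives entry into mitosis with the cyclins A and B, read 7.57, 8.14 and 8.39 with vehicle, 7.97, 8.31 and 8.55 with LCN2 from day 7 and 7.40, 8.69 and 8.59 with LCN2 from day 0. Its arrays numbered 1 were the lowest 3, with -0.73 ± 0.16 and -0.86 ± 0.16, and its cyclins Ccna2 and Ccnb2 differed from number 2 by -1.19 and -0.57. Cdc20, which activates the ubiquitin ligase that ends metaphase, read 6.14, 7.33 and 7.75 with vehicle, 7.30, 7.66 and 7.76 with LCN2 from day 7 and 6.08, 7.65 and 7.70 with LCN2 from day 0. It was low on the vehicle and day 0 arrays numbered 1 and closer to the others on the day 7 array, and its differences were -1.04 ± 0.23 (adjusted p = 0.0145) and -1.23 ± 0.23. Ube2c, the ubiquitin-conjugating enzyme of that ligase, and Cdca3 differed from number 2 by -0.83 and -0.70.

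The kinases Plk1, Aurka and Aurkb run centrosome separation, spindle assembly and chromosome attachment, and Birc5 (survivin) and Cdca8 (borealin) are partners of Aurora B. Plk1 read 8.79, 9.64 and 9.68 with vehicle, 9.39, 9.74 and 9.75 with LCN2 from day 7 and 8.54, 9.91 and 9.98 with LCN2 from day 0. Aurkb read 8.10, 9.12 and 9.42 with vehicle, 8.51, 9.27 and 9.27 with LCN2 from day 7 and 8.04, 9.40 and 9.46 with LCN2 from day 0. Birc5 read 8.25, 8.79 and 9.08 with vehicle, 8.72, 8.76 and 8.92 with LCN2 from day 7 and 8.07, 8.94 and 9.13 with LCN2 from day 0. In these 3 genes the arrays numbered 1 were below the other 6, with differences of -0.86 ± 0.19, -1.05 ± 0.14 and -0.49 ± 0.16 from number 2, of which Birc5 did not pass (adjusted p = 0.0648) although it did against number 3 (adjusted p = 0.0156). Cdca8 had the smallest mitotic differences, -0.42 ± 0.11 and -0.34 ± 0.11, and read 7.67, 7.97 and 7.93 with vehicle, 7.59, 7.83 and 7.84 with LCN2 from day 7 and 7.46, 8.16 and 7.97 with LCN2 from day 0. Its call against number 2 was lost without any 1 vehicle array or the day 0 arrays numbered 1 or 2 (adjusted p up to 0.114), that against number 3 without any 1 array other than those numbered 2 with LCN2 (up to 0.19), and both without the dim filter (0.0651 and 0.11). Aurka and Tpx2, the protein that activates it on the spindle, fell by 0.67 and 1.06 against number 2.

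Checkpoint genes of the kinetochore, the site where chromosomes hold the spindle, gave some of the widest gaps. Bub1b, which encodes the checkpoint protein BUBR1, read 6.20, 7.44 and 8.18 with vehicle, 6.92, 7.32 and 8.19 with LCN2 from day 7 and 5.67, 7.88 and 7.84 with LCN2 from day 0. The arrays numbered 1 were lowest, and Bub1b also had the widest gap between numbers 2 and 3 among the members (-0.52 ± 0.28, adjusted p = 1). Number 1 differed from numbers 2 and 3 by -1.28 ± 0.28 and -1.80 ± 0.28, and the call against number 2 was lost without the vehicle array numbered 1 or 2 or the day 0 array numbered 1 (adjusted p = 0.0635, 0.0505 and 0.0571). Bub1, a kinase of the same checkpoint, read 6.96, 7.96 and 8.40 with vehicle, 6.87, 7.59 and 8.36 with LCN2 from day 7 and 6.59, 8.48 and 8.23 with LCN2 from day 0 and differed by -1.20 ± 0.20 and -1.52 ± 0.20. Cenpa, the histone variant of centromeres, missed the threshold against number 2 (-0.47 ± 0.16, adjusted p = 0.0656) and passed it against number 3 (-0.63 ± 0.16, adjusted p = 0.0205). Ttk, Ndc80, Cenpe and Cenpf differed from number 2 by -1.08, -0.97, -0.95 and -1.18, and all 4 passed.

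Motor and spindle genes had the lowest median of the groups by role, -1.18 and -1.38, and all 7 passed in both comparisons. Kif11, the kinesin that pushes spindle poles apart, read 6.52, 7.99 and 8.12 with vehicle, 7.24, 7.94 and 8.29 with LCN2 from day 7 and 5.77, 8.41 and 8.34 with LCN2 from day 0. The arrays numbered 1 were more than 1 log2 unit below the other arrays of the vehicle and day 0 groups, and its differences were -1.60 ± 0.30 (adjusted p = 0.00845) and -1.73 ± 0.30 (adjusted p = 0.00503). Nusap1, a spindle protein, differed by -1.47 ± 0.20 and -1.53 ± 0.20, and Ect2, which starts the cleavage furrow, by -1.35 ± 0.19 and -1.48 ± 0.19. Kif20a, Kif23 and Prc1, of the central spindle, and Hmmr differed from number 2 by -1.14, -1.18, -1.13 and -1.12. Between numbers 2 and 3, the other wide gaps after Bub1b were Bub1 (-0.32), Chek1 (-0.31), Hmmr (-0.26) and Cdc6 (-0.25), and the narrowest were Cenpe (0.0057), Mcm6 (-0.0085), Tk1 (-0.012), Pcna (0.013) and Cdca3 (-0.020), with 0 past the threshold.

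**Figure D3:**
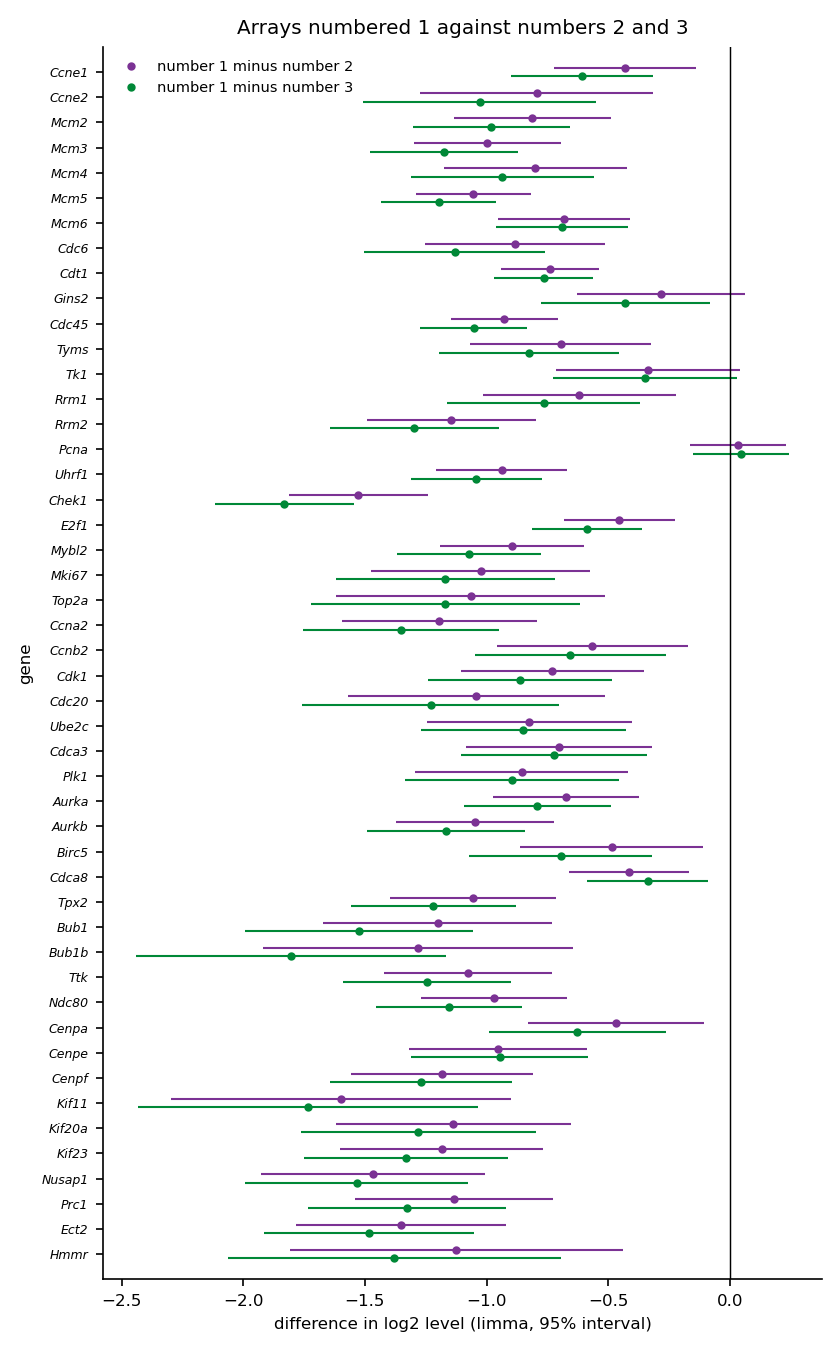
Difference of each member between the arrays numbered 1 and those numbered 2 or 3, in log2 units, from the fit with group in the model; points are estimates and bars 95% intervals (n = 3 arrays per number). Pcna lies at 0, and Kif11, Chek1, Nusap1, Bub1b and Bub1 are among the lowest points.

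S-phase and mitotic genes were then set side by side. The median difference of the mitotic genes in number 1 was -1.05 against number 2 and -1.19 against number 3, while the S-phase medians were -0.80 and -0.96. After each gene was centred on its mean over the 9 arrays, the mean of the mitotic genes minus that of the S-phase genes was -0.15, 0.071 and 0.073 with vehicle, -0.017, -0.015 and 0.079 with LCN2 from day 7, and -0.31, 0.17 and 0.10 with LCN2 from day 0. The classes were closest on the day 7 arrays numbered 1 and 2, and furthest apart on the day 0 array numbered 1. Averaged over groups, the class difference in number 1 minus that in the other numbers was -0.24. The gap between number 1 and the mean of numbers 2 and 3 had a median over all members of -0.98 with vehicle, -0.60 with LCN2 from day 7 and -1.32 with LCN2 from day 0. For S-phase genes these medians were -0.90 with vehicle, -0.60 with LCN2 from day 7 and -1.16 with LCN2 from day 0, and for mitotic genes -1.08 with vehicle, -0.67 with LCN2 from day 7 and -1.51 with LCN2 from day 0. Each group has 1 array of a number, so whether the gap differs between groups was not tested, and no p is given for a class mean because the members were listed with earlier results known.

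**Figure D4:**
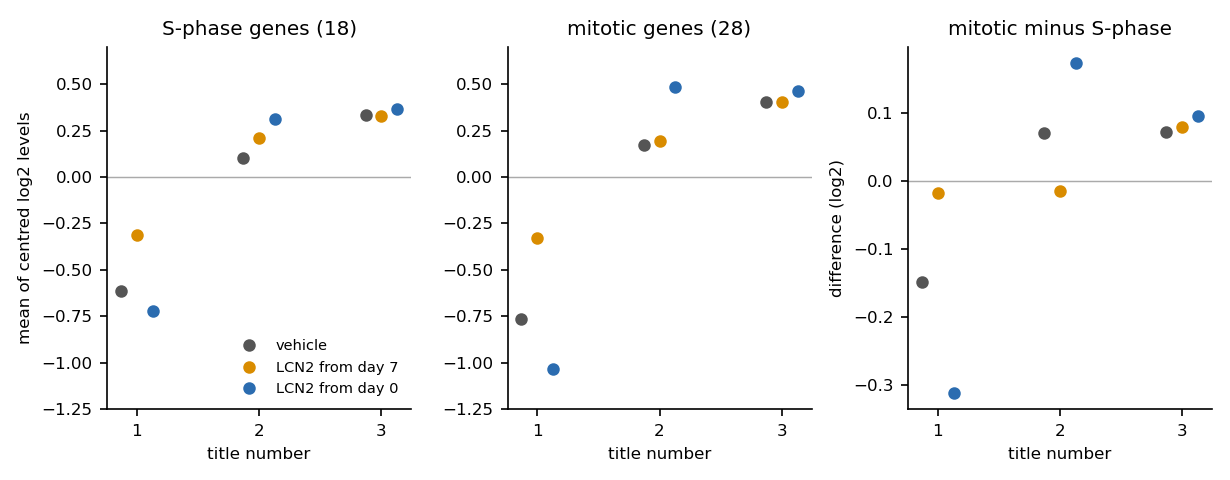
Mean level of the S-phase and of the mitotic members on each array, after centring each gene on its mean over the 9 arrays (log2 units); each point is 1 array, by group and number. Number 1 lies lowest in each group, from -0.33 for mitotic genes with LCN2 from day 7 to -1.04 with LCN2 from day 0.

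Markers of other marrow cells moved with the same number. Beside the counts below, 15.4% of all genes tested fell and 7.64% rose against number 2, and 19.5% and 9.08% against number 3. Of 11 neutrophil granule genes tested, 8 fell and 1 rose in number 1 against either number, with medians of -1.24 and -1.17, and the mean level over the 14 measured was 6.13 to 6.61 on the arrays numbered 1 and 7.00 to 7.41 on the other 6. Of 10 monocyte genes tested, 7 fell and 2 rose against number 2 and 5 fell and 2 rose against number 3 (medians -0.72 and -0.49; mean level 6.54 to 6.70 against 6.94 to 7.18). Ccr2 and Ly6c2, which mark the inflammatory monocyte, differed from number 2 by -2.39 and -1.51, and Cd34, a progenitor marker, by -2.24. Of 6 progenitor genes tested, 3 fell and 1 rose (medians -0.66 and -0.84). Osteoclast and giant cell genes went the other way, with 5 of 9 higher and 1 lower (medians 0.43 and 0.39), among them Acp5 and Ctsk (2.24 and 2.17 against number 2), an acid phosphatase and a protease of bone resorption. Macrophage markers as a list had medians near 0 (0.057 and 0.11), with 3 of 10 higher and 1 lower. Of 6 dendritic cell genes tested, 3 were higher against number 2 and 2 against number 3. Elane and Mpo count under neutrophils and progenitors alike, and Mmp9 under neutrophils and osteoclasts. The part of these other cells in the cell cycle result was not tested.

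Genes of the same pathways outside the 51 showed the breadth of the difference by number. Over all genes tested, the shares that fell were 15.4% against number 2 and 19.5% against number 3. Of other mitotic genes, 42 of 50 fell against number 2 and 47 against number 3, led by Knl1, a kinetochore scaffold, at -1.38 (adjusted p = 0.00054), Melk, a kinase of dividing cells, at -1.61 (adjusted p = 0.000733), and the kinesin Kif15 at -1.45 (adjusted p = 0.00136) in limma. Of other replication factors, 26 of 37 fell against number 2 and 28 against number 3. These included Dbf4, the activator of the origin-firing kinase, at -1.04 (adjusted p = 0.00367), the maintenance methyltransferase Dnmt1 at -0.58 (adjusted p = 0.0037) and the histone chaperone Asf1b at -0.76 (adjusted p = 0.00295). Of DNA repair genes of S phase, 11 of 14 fell against number 2 and 12 against number 3, with Fanci (-1.62) and Fancd2 (-0.999) of the crosslink repair pathway and Wdhd1 (-1.10). No gene of these 3 lists was called higher.

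Regulators upstream of these genes were more mixed. Of the RB and E2F family, 6 of 12 fell against number 2 and 8 against number 3, with the repressor E2Fs E2f8 at -1.29 (adjusted p = 0.00177) and E2f7 at -0.68 (adjusted p = 0.00226) and the RB relative Rbl1 at -0.84 (adjusted p = 0.0108) among them. The list of G1 cyclins and kinases also held Ccnc, Ccnh and Cdk7, which are not specific to G1. Of its genes, 5 of 8 fell against number 2 and 6 against number 3. Among them were Cdk2 at -0.82 (adjusted p = 0.00362), Cdk6 at -0.57 (adjusted p = 0.00642) and Ccnh at -0.62 (adjusted p = 0.00882) in limma. Ccnd1 was not analysed here. Of the MuvB core, 1 of 5 fell against number 2 and 1 against number 3, namely Lin9. That count is too small to set apart from the 15.4% and 19.5% of all genes that fell. CDK inhibitors restrain these kinases, and 2 of 6 fell against number 2 and 3 against number 3. Cdkn2c, an inhibitor of CDK4 and CDK6, read 6.10, 7.17 and 7.60 with vehicle, 6.81, 7.37 and 7.44 with LCN2 from day 7 and 6.16, 7.49 and 7.76 with LCN2 from day 0, which put its arrays numbered 1 lowest as well. Cdkn1a, the p53-induced inhibitor p21, read 12.14, 12.30 and 12.13 with vehicle, 12.18, 12.35 and 12.20 with LCN2 from day 7 and 12.43, 12.24 and 12.31 with LCN2 from day 0, with the numbers overlapping. Cdkn1b differed by -0.26 (adjusted p = 0.203) against number 2 and -0.45 (adjusted p = 0.0386) against number 3.

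Of 12 p53 targets tested, 6 fell and 2 rose against number 2, and 5 fell and 3 rose against number 3. Over all genes tested, 15.4% fell and 7.64% rose against number 2, and 19.5% and 9.08% against number 3. Zmat3 (-0.63) and Trp53inp1 (-0.57) were lower and Gadd45a (0.53) was higher. Of 10 genes of the M-CSF growth signal, 4 rose and 1 fell in both comparisons. Myc, a growth-promoting transcription factor, was among those that rose and read 11.15, 10.60 and 10.54 with vehicle, 11.02, 10.54 and 10.53 with LCN2 from day 7 and 11.08, 10.64 and 10.64 with LCN2 from day 0, so its 3 arrays numbered 1 were the highest of the 9. Mxi1, an antagonist of Myc, rose by 1.09, and Maf, a factor of mature macrophages, fell by 0.86. The receptor Csf1r read 12.10, 12.12 and 12.02 with vehicle, 11.98, 12.16 and 12.02 with LCN2 from day 7 and 12.06, 11.99 and 11.97 with LCN2 from day 0, with the numbers overlapping.

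Against this spread, LCN2 added on day 7 gave no member past the threshold, and no gene at all was called (limma, 0 of 48 members and 0% of 10042 genes at adjusted p under 0.05, 0 members and 70 genes at an unadjusted p under 0.05). With the array number as a block the counts stayed at 0 members and 0% of genes, with 259 genes and 1 member, Mybl2 (adjusted p = 0.999 with the block), at an unadjusted p under 0.05. The median difference of the members was 0.16, beside 0.0025 over all genes, and 44 of 48 estimates were above 0. That median was 0.38, 0.074 and 0.0073 within numbers 1, 2 and 3, so it came mostly from the pair of arrays numbered 1. With 1 array left out at a time it ran from -0.18 without the vehicle array numbered 1 to 0.38 without the day 7 array numbered 1, so its sign depended on a single array. The members moved together with the array number, so counts of their signs, here and in the comparisons below, are not counts of independent genes. The S-phase median was 0.15 (-0.15 to 0.38 with 1 array left out) and the mitotic median 0.18 (-0.20 to 0.40).

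Cdc20 had the largest estimate, 0.50 ± 0.49 (SE, n = 3 per group, 95% interval -0.61 to 1.61, adjusted p = 1), followed by Mybl2 (0.33 ± 0.40), Tk1 (0.31 ± 0.21), Mcm2 (0.30 ± 0.37) and Kif11 (0.28 ± 0.70). At the low end were Bub1 (-0.17 ± 0.57), Cdca8 (-0.10 ± 0.18), Tyms (-0.038 ± 0.33), Pcna (-0.020 ± 0.095) and Cdca3 (0.020 ± 0.32), and E2f1 was at 0.11 ± 0.23. Without the vehicle array numbered 1, Cdc20 was at 0.037 and Mcm2 at 0.012, and without that numbered 3 they were at 0.84 and 0.54. In the fit without the array number the 95% intervals reached from -1.45 to 1.86 over the members. With the number as a block the SE of Cdc20 was 0.23 in place of 0.49, and that of Kif11 0.30 in place of 0.70. Tk1, read above, was the only member whose day 7 arrays all lay above the vehicle arrays. Over all genes, 1.49% had day 7 arrays all above vehicle and 1.67% all below. Within each of the 3 numbers the day 7 array was higher for 16 of 48 members and lower for 2, against 11.4% and 10.3% of all genes. The 2 lower in every number were Bub1 and Cdca8, and among the 16 were Cdc6, Cdt1, Cdc45, Rrm1, Rrm2, Cdk1, Cdc20 and Plk1.

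Neutrophil granule genes had a day 7 median of 0.40 over the 11 tested and a day 0 median of 0.41, with 0 called in either. The mean level of the 14 measured ran over 6.13 to 7.12 with vehicle, 6.61 to 7.25 with LCN2 from day 7 and 6.35 to 7.41 with LCN2 from day 0, so the groups overlapped. Progenitor genes had medians of 0.20 and 0.19 over 6. The 9 osteoclast and giant cell genes tested had a day 0 median of -0.42 against vehicle and of -0.43 against day 7. The 6 dendritic cell genes tested had a day 0 median of -0.33 against vehicle, and 0 genes of either list were called. The part of these lists in the members' medians was not tested.

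LCN2 from day 0 gave the same count of calls, 0 of 48 members and 0% of all genes (limma), with 0 members and 142 genes at an unadjusted p under 0.05. The count with the number as a block was likewise 0%, with 0 members and 497 genes at an unadjusted p under 0.05. The members' median was 0.032 beside -0.015 over all genes, with 28 of 48 above 0. Within numbers 1, 2 and 3 it was -0.20, 0.27 and 0.050, so the sign differed between the pairs of arrays. With 1 array left out it ran from -0.26 without the vehicle array numbered 1 to 0.49 without the day 0 array numbered 1. The estimates were highest for Tk1 (0.27 ± 0.21), Cdk1 (0.20 ± 0.35), Ttk (0.18 ± 0.47), Kif23 (0.17 ± 0.51) and Chek1 (0.17 ± 0.66), and lowest for Top2a (-0.19 ± 0.49), Bub1b (-0.14 ± 0.67), Mcm3 (-0.12 ± 0.44), Nusap1 (-0.10 ± 0.61) and Ect2 (-0.10 ± 0.57). E2f1 and Mybl2 were at -0.0053 ± 0.23 and 0.078 ± 0.40. Pcna was the only member whose day 0 arrays did not overlap the vehicle arrays, being lower by 0.041 (adjusted p = 0.999), and over all genes 3.44% were lower and 2.05% higher without overlap. Within every number, 5 members were higher (Ccne1, Cdt1, Cdc45, Chek1 and Prc1) and 1 lower (Pcna), against 11.8% and 15.4% of all genes.

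Between the times of LCN2 addition, day 0 against day 7, again 0 members and 0% of genes were called in limma, with or without the block (0%), with 0 members and 177 genes at an unadjusted p under 0.05 without it and 0 and 539 with it. The members' median was -0.088 beside -0.017, with 43 of 48 below 0. Within the numbers it was -0.56, 0.18 and 0.077, and in number 1 all 48 members were lower with LCN2 from day 0, while both other medians were above 0. With 1 array left out it ran from -0.32 without the day 0 array numbered 3 to 0.34 without the day 0 array numbered 1. The lowest estimates were those of Cdc20 (-0.43 ± 0.49), Bub1b (-0.35 ± 0.67), Nusap1 (-0.34 ± 0.61), Kif11 (-0.32 ± 0.70) and Mcm3 (-0.29 ± 0.44), and the highest those of Bub1 (0.16 ± 0.57), Cdca8 (0.11 ± 0.18), Aurka (0.062 ± 0.31), Mcm4 (0.011 ± 0.37) and Tyms (0.0047 ± 0.33). E2f1 was at -0.12 ± 0.23 and Mybl2 at -0.26 ± 0.40. No member had groups without overlap, against 2.93% of all genes lower and 2.07% higher. In every number 0 members were higher and 2 lower (Cdc20 and Mybl2), against 8% and 12.9% of all genes.

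For the mean of both LCN2 groups minus vehicle, again 0 members and 0% of genes were called in limma (0 members and 68 genes at an unadjusted p under 0.05), and 0% with the block (0 and 312). The members' median was 0.10, and their estimates ran from Bub1 (-0.089) to Tk1 (0.29). With 1 array left out the median ran from -0.23 without the vehicle array numbered 1 to 0.32 without the day 0 array numbered 1. The F test over the 3 groups called 0 members and 0% of genes as well, and 0 members had an unadjusted p under 0.05. These comparisons share arrays, vehicle in 3 of them, so agreement between them is no separate evidence. None of the genes in the pathway lists outside the 51 was called in any comparison of groups.

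**Figure D5:**
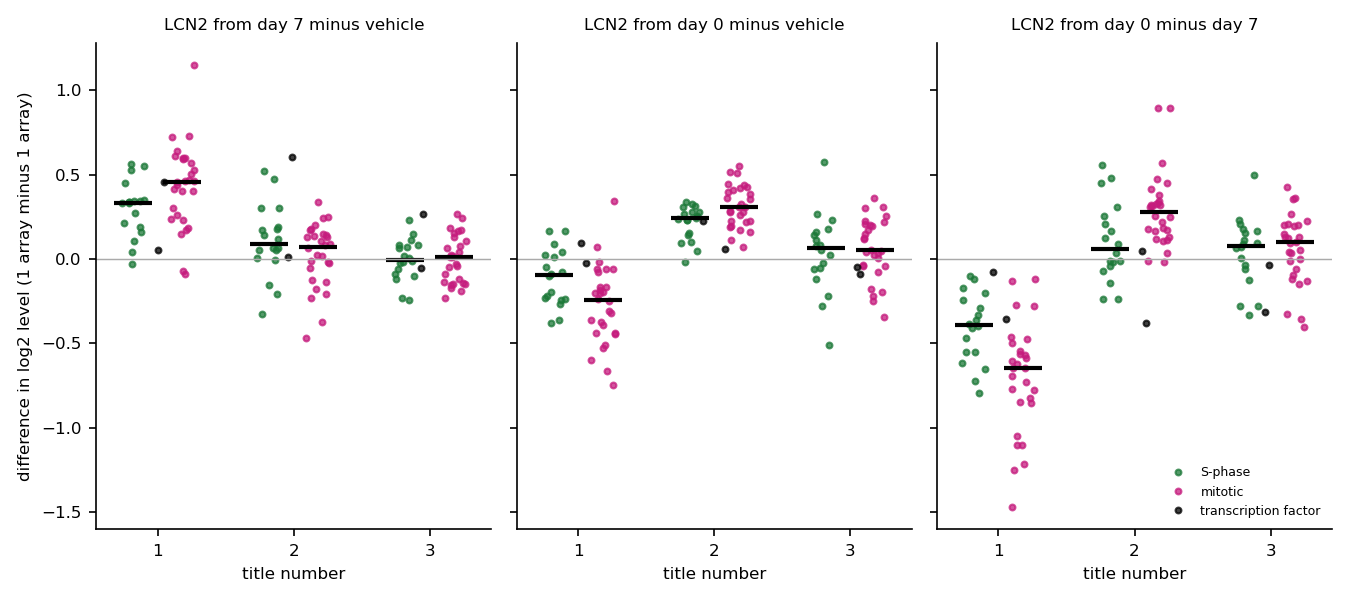
Differences between groups within each array number, for the members; each point is 1 gene's difference between 1 pair of arrays in log2 units, and the lines are the medians of the S-phase and of the mitotic genes. With LCN2 from day 7 against vehicle the S-phase medians are 0.33, 0.091 and -0.0053 and the mitotic medians 0.46, 0.071 and 0.011 in numbers 1, 2 and 3, and with day 0 against day 7 they are -0.39, 0.061 and 0.077 and -0.65, 0.28 and 0.10.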

How the data were processed

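Expression was measured on 9 biotin-labelled arrays after amplification with a 3' IVT Pico kit, per the labels' protocols. The deposited values are log2 levels per probe set, made by the authors with RMA in the R package oligo, per the submitters' processing notes, and their versions are not given in the sources used here. Of 22203 probe sets, 19572 carried 1 gene symbol in the platform annotation, none several and 2631 none, and Entrez identifiers were matched to RefSeq GRCm38.p6 with no symbol changed. The probe set with the highest mean was kept per gene, and genes whose probe set had a mean under 5.66, the median over probe sets, were left out. limma 3.58.1 (R 4.3.3) was fitted to all 9 arrays with Benjamini-Hochberg adjustment over 10042 genes and a threshold of 0.05, by group and, for the numbers, by group plus number. Same-numbered arrays of different groups deviated together in 9 of 9 pairs (correlation 0.156 to 0.82). Arrays numbered 2 correlated with those numbered 3 in other groups as well (0.201 to 0.687). Those numbered 1 correlated negatively with both. The correlations thus set number 1 apart and do not show that numbers 2 and 3 pair. The number, taken from the titles, was used as a block in the main alternative. The members and lists were chosen with earlier results of these data known. Members were named by rule: the 5 highest and 5 lowest in each comparison plus the transcription factors (for the mean of both LCN2 groups, the extremes only). The scripts were tested on simulated data, and the alternatives tried are given with their effect in the closing section. How RMA's quantile step affects differences between arrays of unlike composition was not tested.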

Additional observations from a re-analysis of the deposited data

How the results depend on the processing

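Counts of members called kept their side under every alternative tried for the group comparisons: with all arrays, with the array number as a replicate block, without a dim filter or with a stricter one, with trended robust variances, with array weights, with all or the lowest probe sets, after centring, with only the groups compared, without the arrays numbered 1, and without any 1 array, 0 members were called. The stricter dim filter left 47 members, without Cenpf. The arrays numbered 1 stood apart from the others, while those numbered 2 and 3 did not clearly pair by number. The block changed no call. For the numbers, array weights (whose fit gave a convergence warning) raised the genes called to 3722, 4382 and 4199 (1 against 2, 1 against 3 and F test). Leaving out 1 array gave 1076 to 2654, 1263 to 3126 and 785 to 2611 genes, 27 to 44 members against number 2 and 24 to 45 by the F test, and a mitotic median of -1.26 to -0.81 against number 2. In a window of 150 bases the CHR letters were in 1 S-phase promoter.

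None of the single-gene group differences passed a threshold, and some changed sign. With array weights the values were for day 7 minus vehicle Cdca3 -0.080 and Kif11 -0.045, for day 0 minus vehicle Top2a 0.082, Bub1b 0.17, Nusap1 0.029 and E2f1 0.0019, for day 0 minus day 7 Bub1b 0.089, Nusap1 0.019 and Kif11 0.20, for number 2 minus 3 Cenpe -0.067. With arrays centred on their medians they were for day 7 minus vehicle Pcna 0.0070, for day 0 minus day 7 Tyms -0.033 and Mcm4 -0.027, for number 1 minus 2 Pcna -0.0056. Without the arrays numbered 1 they were for day 7 minus vehicle Cdca3 -0.060, for day 0 minus vehicle Top2a 0.054, Bub1b 0.047, Nusap1 0.074, Ect2 0.018 and E2f1 0.0034, for day 0 minus day 7 Bub1b 0.11, Nusap1 0.010 and Kif11 0.26. With 1 array left out at a time, day 7 minus vehicle ran over Bub1 -0.58 to 0.20, Tyms -0.26 to 0.13, Pcna -0.059 to 0.016, Cdca3 -0.18 to 0.14, Kif11 -0.23 to 0.57, Mybl2 -0.016 to 0.64 and E2f1 -0.069 to 0.30. Day 0 minus vehicle ran over Top2a -0.54 to 0.41, Bub1b -0.68 to 0.58, Mcm3 -0.48 to 0.33, Nusap1 -0.60 to 0.58, Ect2 -0.60 to 0.53, Chek1 -0.44 to 0.78, Kif23 -0.27 to 0.74, Ttk -0.27 to 0.55, Cdk1 -0.035 to 0.61, E2f1 -0.17 to 0.17 and Mybl2 -0.27 to 0.42. Day 0 minus day 7 ran over Cdc20 -0.71 to 0.10, Bub1b -0.72 to 0.38, Nusap1 -0.68 to 0.33, Kif11 -0.77 to 0.55, Mcm3 -0.57 to 0.15, Tyms -0.23 to 0.39, Mcm4 -0.21 to 0.34, Aurka -0.17 to 0.39, Cdca8 -0.041 to 0.31, Bub1 -0.20 to 0.75, E2f1 -0.31 to 0.063 and Mybl2 -0.55 to 0.085. The mean of both LCN2 groups minus vehicle ran over Bub1 -0.50 to 0.23. Number 1 minus 2 ran over Pcna -0.0068 to 0.065, and number 2 minus 3 over Cenpe -0.12 to 0.088, Mcm6 -0.12 to 0.077, Tk1 -0.21 to 0.20, Pcna -0.027 to 0.039, Cdca3 -0.14 to 0.10 and Hmmr -0.65 to 0.15. Where leaving out an array or weighting it changed a value, the cause was not tested. The number of arrays, 3 a group, limits the precision.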
